A study of Trametes elegans with 15 samples.

Results

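Transcript levels of the wood-decay fungus Trametes elegans were set side by side on a grass and on a hardwood, as wheat straw against aspen. The comparison took the deposited straw level minus the deposited aspen level for every gene of the deposited table, 949 of 949. The groups were taken from the sample titles, 3 samples on straw and 3 on aspen of 15 in all. Strain BRFM 1663, which the titles call Artolenzites elegans, grew for 3 days at 30 °C in shaken flasks, and both media held yeast extract and 15 g/l of the plant solid beside maltose. Straw was sifted to fragments under 2 mm with 2.5 g/l of maltose, whereas aspen was milled to 1 mm and its amount of maltose cannot be read from the labels. Plant, particle size and possibly maltose therefore differ together between the groups and cannot be told apart. The flasks held mycelium with leftover solid, which were frozen together, and RNA was extracted from the ground tissue.

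White-rot fungi of the order Polyporales secrete enzymes that take apart cellulose, hemicellulose and lignin, among them cellulases, xylanases, oxidative polysaccharide-cleaving enzymes, peroxidases and laccases. Grass cell walls carry arabinoxylan that is linked to lignin through ferulic acid, while the main hemicellulose of hardwood is glucuronoxylan. Genes in the table carry only a portal number. The numbers are not paired with names or functions in the sources used here, so no gene below is assigned to any of these enzymes, and genes are described by level and pattern.

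The deposited level is 1 value per medium, log2(normalised read count + 1). Whole reads of single libraries were recovered from the decimals of these values, for 2 straw libraries at all 949 genes and for 3 aspen libraries at 853 genes. The labels list 3 straw samples, and the deposited straw values decoded as the mean of 2 libraries, so 1 sample is not analysed here. Libraries carry no replicate number and are called a, b and c by the order of their scaling factors. Of the 96 genes without recovered aspen reads, 79 were at a level of 13 or more on aspen and 17 allowed several read sets, and for these only the deposited values are given. Recovered reads came to 3290860 and 2760113 in straw libraries a and b over all listed genes, and to 801525 to 906849 in the aspen libraries over 853 genes, which hold fewer of the highest genes. They cover the listed genes only, so the full depth of the libraries is unknown. The labels do not say that samples were separate cultures, so p-values speak only to the scatter among these libraries, possibly technical in origin.

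The 5 libraries separated by plant. Over the 853 genes, the root mean square difference was 0.382 between the straw libraries and 0.33 to 0.424 between aspen libraries, against 1.4 to 1.52 between a straw and an aspen library (log2 scale). The median SD between libraries, over 776 genes recovered in all media, was 0.13 on straw and 0.16 on aspen.

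Calls needed a log2 difference of 1 or more, a 2-fold change, together with a Benjamini-Hochberg adjusted p below 0.05 from limma, a linear model with moderated variances. Of 853 genes tested, 172 were higher on straw, which is 20.2%, and 83 were lower, which is 9.73%, so 29.9% were called in all. The 2 sets differed in size of change as well as in number. Genes called higher had a median log2 difference of 2.11, and 95 of them differed by at least 2, 54 by at least 3 and 26 by at least 4. Genes called lower had a median of -1.34, and 14 differed by at least 2, 2 by at least 3 and 1 by at least 4. The long arm of the distribution therefore lay on the straw side, while the median over all tested genes was 0.07.

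As deposited, many differences were small but beyond the spread between libraries. Centring each library on its own median moved the median difference by -0.33, while the median SE was 0.18. Small differences can therefore depend on the scaling, and the counts in this paragraph are for the deposited scaling only. In all 516 genes, or 60.5%, had an adjusted p under 0.05 at any size, and 261 of these differed by less than 1. For 397 genes, or 46.5%, the 95% interval of the difference lay wholly within 1 log2 unit of 0. The straw and aspen libraries did not overlap for 632 genes, or 74.1%, and this included all 172 genes called higher and all 83 called lower. Over all 949 listed genes, 183 (19.3%) were higher on straw and 101 (10.6%) lower by at least 1 in deposited level, 29.9% together, and 665 lay within 1.

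**Figure D1:**
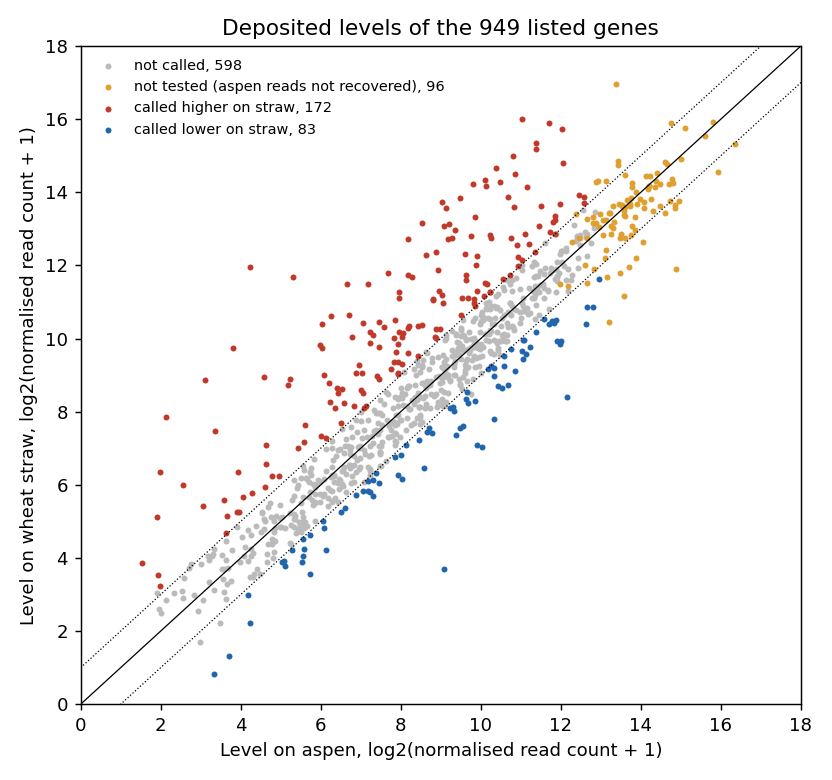
Deposited level of each listed gene on aspen (x axis) and wheat straw (y axis), both as log2(normalised read count + 1). The solid line marks equal levels and the dotted lines a log2 difference of 1. Red points (172 genes called higher on straw) reach farther from the line than blue points (83 called lower), and orange points are the 96 genes not tested.

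How many called genes were higher depended on the scaling between libraries. As deposited, 67.5% of called genes were higher on straw. The median level over all listed genes was 9.21 on straw and 8.91 on aspen. Centring each library on its own median, taken over the 776 genes recovered in all media, lowered the median difference by 0.33. After that centring 139 genes were higher and 144 lower, so 49.1% were higher, and after quantile normalisation the counts were 116 and 123, or 48.5%, of 776 genes tested. Centring on the median difference from the gene means gave 168 and 86, or 66.1%. The peak of the deposited differences sat at -0.07. Of the 255 calls, 222 held with the same direction after median centring and 251 after centring on the median difference, and none turned. Of the 219 called genes that quantile normalisation could test, 187 held and none turned.

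**Figure D2:**
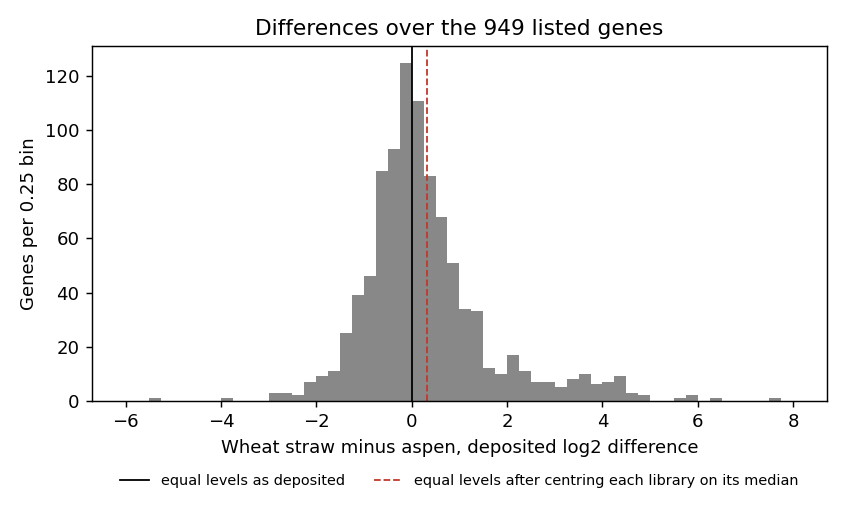
Number of genes (y axis, bins of 0.25) by deposited level on wheat straw minus aspen (x axis, log2) over the 949 listed genes. The solid line marks equal levels as deposited, and the dashed line at 0.33 marks equal levels after each library is centred on its own median, which moves the line into the right shoulder of the peak.

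The 5 largest differences belonged to genes that were weak on aspen, with straw levels that ran from 7.85 to 11.95 against a median of 9.21 over all listed genes. Gene 808921 stood at 11.92 and 11.98 in the straw libraries, and at 5.05, 4.38 and 3.29 in the aspen libraries. It was 209-fold higher on straw, with a log2 difference of 7.71 (SE 0.51, limma adjusted p = 8.46e-09). The straw libraries held 3872 and 3817 reads of it and the aspen libraries 36, 21 and 9, so the groups lay 6.87 apart at their nearest and the straw pair was tight. Outside this comparison the gene was at 3.77 on maltose, 3.08 on pine and 6.88 on cellulose.

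Gene 815362 was at 12.35 and 11.02 on straw and at 5.54, 5.01 and 5.36 on aspen. Its log2 difference was 6.38 (SE 0.44, limma adjusted p = 1.26e-08), an 83.4-fold excess on straw. Here the straw libraries disagreed, with an SD of 0.94, and the SE, pooled over all media, does not show that. Without straw library a the difference was 5.72 and without library b it was 7.05, in both cases still called. Its deposited levels of 1.96 on maltose, 2.05 on cellulose and 2.78 on pine made aspen, at 5.30, the next highest medium after straw.

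Gene 868651 was 61.1-fold higher on straw, at 9.98 and 9.49 against 4.48, 3.25 and 3.67 on aspen (log2 difference 5.93, SE 0.34, limma adjusted p = 1.39e-09). It stayed between 3.60 and 5.09 in every medium other than straw, so straw was the single medium in which this gene was strong. Genes 806789 and 815752 were low on aspen, on cellulose and on pine. Gene 806789 was at 9.15 and 8.58 on straw and at 3.17, 3.63 and 2.56 on aspen, a log2 difference of 5.75 (SE 0.62, adjusted p = 1.38e-06). Gene 815752 was at 7.68 and 8.01 on straw and at 2.19, 1.94 and 2.30 on aspen, a log2 difference of 5.71 (SE 0.50, adjusted p = 1.34e-07). With 11 aspen reads in all for 815752, the size of that difference hung on the pseudocount, and 5 in place of 1 gave 4.80. On maltose the genes were at 5.03 and 5.40, on cellulose at 1.77 and 2.64, and on pine at 1.13 and 0.33.

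A second kind of gene was strong on straw, strong on cellulose and only moderate on aspen. Gene 501365, the second highest of all genes on straw, held 89865 and 44268 reads in the straw libraries, at levels of 16.46 and 15.52. On aspen it was at 10.98, 11.19 and 10.94, which made it 30.9-fold higher on straw (log2 difference 4.95, SE 0.22, limma adjusted p = 2.06e-10). Its deposited level was 12.78 on cellulose, 7.85 on pine and 6.36 on maltose. Quantile normalisation reduced the difference to 2.17, and the cause was not tested.

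Gene 65289 followed the same order of media. It was at 14.52 and 13.93 on straw and at 9.78, 9.90 and 9.74 on aspen (log2 difference 4.42, SE 0.19, adjusted p = 1.95e-10), with 12.55 on cellulose and 8.37 on pine, and quantile normalisation gave 3.03. Gene 879066 was at 13.97 and 12.33 on straw and at 7.95, 8.74 and 8.92 on aspen, a log2 difference of 4.61 (SE 0.36, adjusted p = 4.1e-08). This gene had the widest straw pair of the 12 largest differences, with an SD of 1.16. Its difference was 3.79 without straw library a, 5.43 without library b and 3.85 after quantile normalisation, each still called. Cellulose had it at 10.27, pine at 4.82 and maltose at 3.62.

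Of the other 4 of the 12 largest differences, 877740 was also strong on cellulose and moderate on aspen, but it was strong on maltose too. Genes 878148, 393484 and 833386 followed neither pattern. Gene 877740 was at 13.72 and 13.75 on straw against 9.45, 8.89 and 8.75 on aspen, and its 12.68 on maltose and 11.86 on cellulose set both woods, with 6.65 on pine, below the remaining media. Gene 878148 was at 13.70 and 13.46 on straw against 9.16, 9.14 and 9.07 on aspen, with 7.80 to 8.24 on the other 3 media. Its log2 difference was 4.46 (SE 0.12, limma adjusted p = 1.71e-12) and 3.50 after quantile normalisation, and neither group of libraries spread by more than an SD of 0.17. Gene 393484 was at 12.95 and 12.47 on straw, against 7.81, 8.50 and 8.20 on aspen, and gene 833386 was at 11.59 and 11.39 against 6.87, 6.61 and 6.51. Their log2 differences were 4.54 (SE 0.20, adjusted p = 2.06e-10) and 4.83 (SE 0.25, adjusted p = 6.1e-10), and that of 877740 was 4.71 (SE 0.26, adjusted p = 7.07e-09). For 833386 aspen was the lowest of the 5 media, at 6.66, with 8.52 on maltose. Gene 808614, named for its straw level of 15.89, had a log2 difference of 4.19 (SE 0.30, adjusted p = 8.79e-08), at 16.05 and 15.73 on straw and 12.08, 11.46 and 11.57 on aspen.

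**Figure D3:**
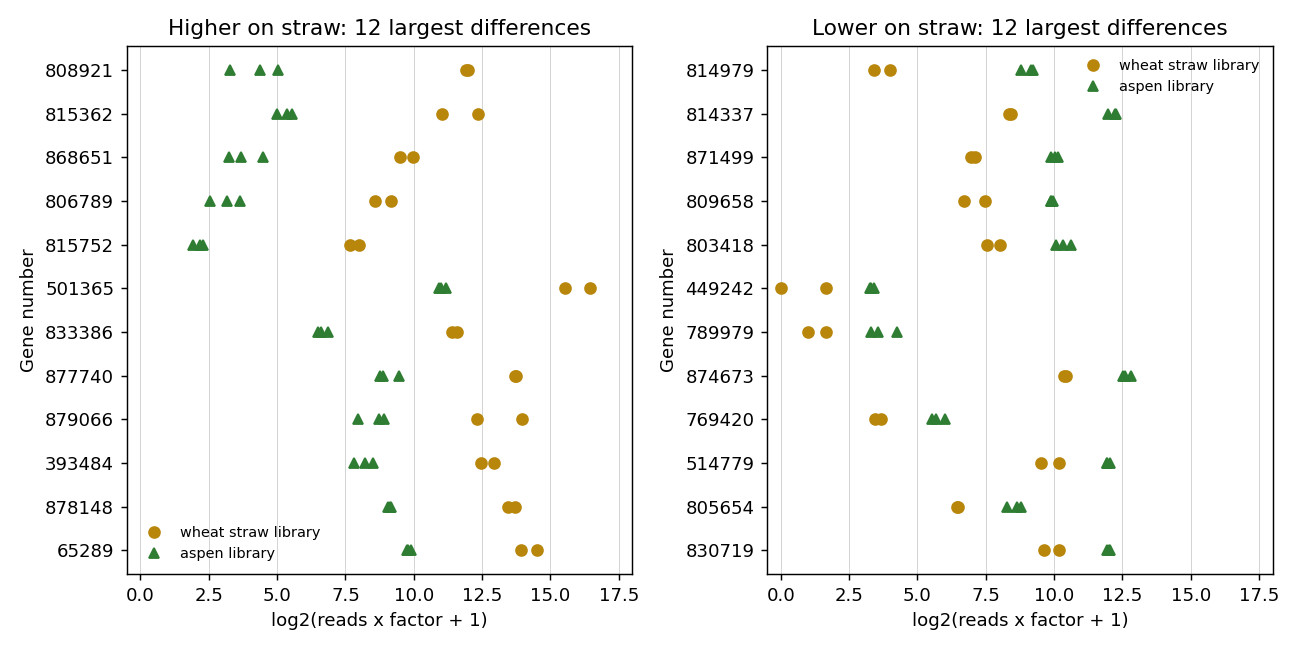
Level of each recovered library, log2(reads x factor + 1), on the x axis for the 12 genes with the largest differences in each direction (gene number on the y axis). Circles are the 2 straw libraries and triangles the 3 aspen libraries. The groups do not overlap for any gene shown, and the gap between the nearest libraries runs from 3.41 (879066) to 6.87 (808921) in the left panel and from 1.61 (449242) to 4.80 (814979) in the right.

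Lower levels on straw were mostly moderate, with 1 exception. Gene 814979 was at 4.0 and 3.40 on straw, from 15 and 9 reads, and at 9.24, 8.80 and 9.17 on aspen, from 679, 471 and 586 reads. It was 41.4-fold higher on aspen, a log2 difference of -5.37 (SE 0.54, limma adjusted p = 5.51e-07). Straw was the lowest of the 5 media for this gene, with 10.11 on cellulose, 7.91 on maltose and 6.55 on pine.

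Gene 814337 had its highest level on aspen. It was at 8.35 and 8.43 on straw and at 11.99, 12.25 and 12.24 on aspen, a log2 difference of -3.77 (SE 0.18, adjusted p = 3.21e-10), and quantile normalisation gave -4.72. Pine followed at 9.93, then straw at 8.39, cellulose at 8.10 and maltose at 6.87, so the woods were the highest media for this gene. Gene 871499 was instead highest on cellulose, at 10.95. It stood at 7.12 and 6.97 on straw against 9.90, 10.04 and 10.15 on aspen, a log2 difference of -2.99 (SE 0.23, adjusted p = 3.71e-08).

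Genes 809658, 514779, 805654 and 830719 shared an aspen level above all other media. Gene 809658 was at 7.47 and 6.71 on straw and at 9.89, 9.89 and 9.95 on aspen, a log2 difference of -2.82 (SE 0.19, adjusted p = 8.91e-09). Gene 514779 was at 9.52 and 10.17 on straw against 11.92, 11.94 and 12.04 on aspen, gene 805654 at 6.45 and 6.49 against 8.29, 8.63 and 8.80, and gene 830719 at 9.65 and 10.18 against 11.95, 12.01 and 12.06. The log2 differences of these 3 were -2.12 (SE 0.18), -2.11 (SE 0.21) and -2.09 (SE 0.22), with adjusted p from 1.34e-07 to 1.04e-06, and quantile normalisation moved 514779 to -2.92 and 830719 to -2.91. Genes 514779 and 830719 were even on aspen, each with an SD of 0.06 (n = 3), and less even on straw, with SDs of 0.46 and 0.38 (n = 2).

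The remaining 5 of the 12 largest decreases differed from one another in their order of media. Gene 803418 had its highest level on maltose, at 13.42, and stood on aspen at 10.08, 10.33 and 10.62 and on straw at 8.02 and 7.55 (log2 difference -2.56, SE 0.18, adjusted p = 7.73e-08). Gene 874673 was at 10.44 and 10.37 on straw, its lowest medium, and at 12.81, 12.52 and 12.58 on aspen, with 13.47 on cellulose and 13.27 on pine (log2 difference -2.23, SE 0.12, adjusted p = 3.24e-08). Gene 769420, low throughout, was at 3.46 and 3.66 on straw against 5.54, 6.01 and 5.67 on aspen, with 5.89 on pine, within the range of the aspen libraries (log2 difference of straw and aspen -2.18, SE 0.40, adjusted p = 0.000284). Genes 449242 and 789979 rest on very few straw reads, 0 and 2 for the first and 1 and 2 for the second, against 29 and 40 reads in all on aspen. Scaled for the number of libraries and their factors, the read ratio of aspen to straw was 8.8 for 449242 (95% exact interval 2.23 to 76.1). For 789979 the scaled ratio was 8.09 (2.58 to 40.9), and both intervals cover counting error only. Their fitted differences of -2.51 and -2.37 became -1.23 and -1.39 with a pseudocount of 5, and 449242 ranged from -1.68 to -3.33 when 1 straw library was left out, each time still called.

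**Figure D4:**
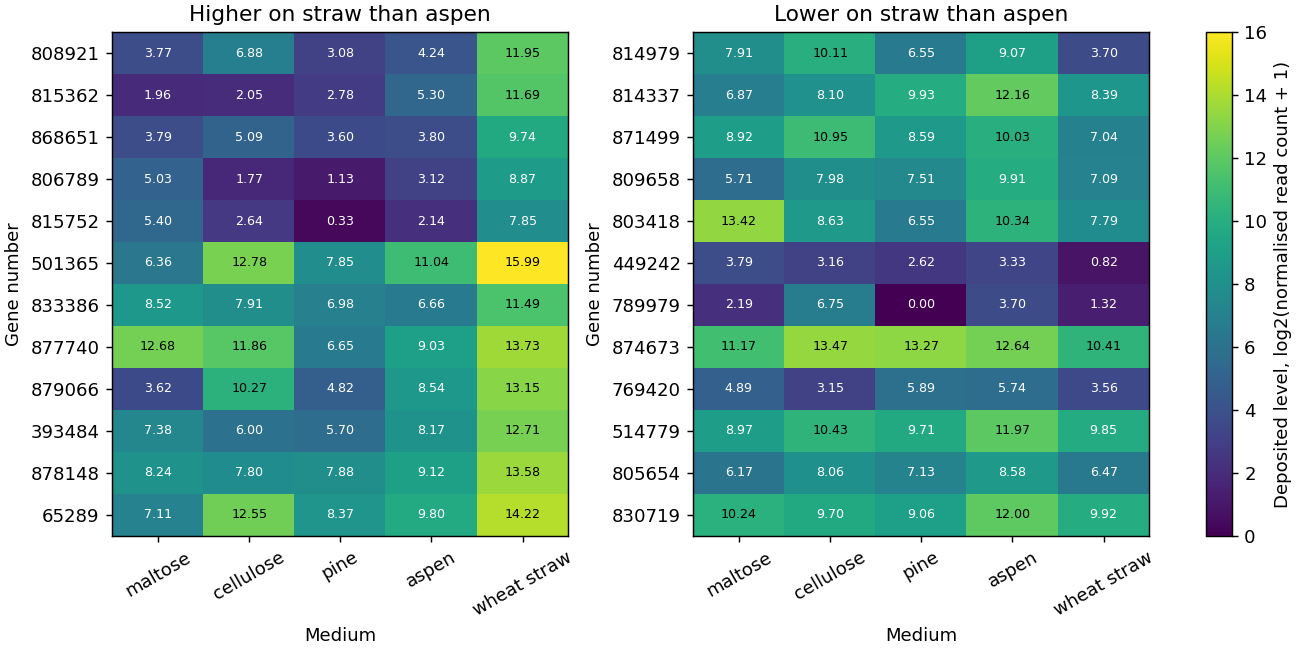
Deposited level, log2(normalised read count + 1), of the same 24 genes (rows) in the 5 media (columns), as colour and printed value. In the left panel every gene is highest on straw, with cellulose next for genes such as 501365 (12.78) and 65289 (12.55). In the right panel the medium with the highest level varies, from aspen for 814337 (12.16) to maltose for 803418 (13.42).

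The place of straw and aspen among the 5 media differed between the 2 sets of calls. The calls themselves favour straw as highest in one set and aspen in the other, so these counts describe the genes and test nothing. Of the 172 genes called higher, straw was the highest of all 5 media for 113 (65.7%), and it led every other medium by at least 1 for 82 and by at least 3 for 17. Of the 83 genes called lower, aspen was highest for 35 (42.2%) and led by at least 1 for 13, while straw was the lowest medium for 35. Among all 853 tested genes straw was highest for 25.3% and aspen for 19.5%.

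The 3 media outside the comparison gave a view that the straw and aspen libraries do not enter. Genes called higher on straw had median deposited levels of 9.66 on cellulose, 7.30 on maltose and 6.80 on pine. Cellulose was the highest of these 3 for 125 of the 172 genes (72.7%), against 41.9% of all tested genes, and pine was the lowest for 52.3%, against 34.7%. Genes called lower on straw had medians of 8.20 on cellulose, 7.49 on maltose and 8.24 on pine, with cellulose highest for 37.3% and pine for 34.9%. Over all tested genes the medians were 8.38, 7.67 and 7.71, and pine was highest for 30.8%, so the lower genes lay near these shares.

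Cellulose against pine was therefore set beside straw against aspen, 2 comparisons that have no library in common, although limma pools 1 spread per gene for both. In cellulose against pine, 27% of 804 tested genes were higher on cellulose and 13.1% lower, 40% together. Of the 793 genes tested in both comparisons, 18.9% were called higher on straw than aspen and 9.33% lower. Among the 215 of them higher on cellulose than pine, 102 (47.4%) were higher on straw and 19 (8.84%) lower, with a median straw minus aspen difference of 0.84. Among the 100 higher on pine than cellulose, 3 (3%) were higher on straw and 19 (19%) lower, with a median of -0.23. Of the remaining 478 genes, 9.41% were higher and 7.53% lower.

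Seen from the other side, 68% of the 150 genes called higher on straw were higher on cellulose than pine and 2% were lower. As deposited, the genes called lower on straw held 19 higher on cellulose and 19 higher on pine of 74, or 25.7% each. Over all 793 genes the shares were 27.1% and 12.6%. After median centring 17 of 134 lower genes were higher on cellulose and 51 higher on pine, with 159 and 204 of all 793 genes. After quantile normalisation they were 13 and 44 of 123, with 153 and 199 of all 776 genes. The split over all genes thus moved with the scaling too. Across the 793 genes, which are not independent replicates, Pearson's r between the 2 differences was 0.433 and Spearman's rho 0.346. After median centring, 73 of 159 cellulose genes (45.9%) were higher on straw, and after quantile normalisation 68 of 153 (44.4%). Over all genes the shares higher on straw were then 15.3% and 14.9%. Gene 814979 ran against this order, since it was lower on straw than aspen but 3.56 higher on cellulose than pine (SE 0.48, limma adjusted p = 8.37e-06). Among the 12 largest falls so did 789979 (6.75), 871499 (2.36) and 803418 (2.08), while 769420 (-2.74) and 814337 (-1.83) were higher on pine. Cellulose was the highest of maltose, cellulose and pine for 7 of these 12 genes, and pine for 2. Gene 815362 differed by -0.74 between cellulose and pine (SE 0.40, limma adjusted p = 0.108), with its large excess on straw.

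**Figure D5:**
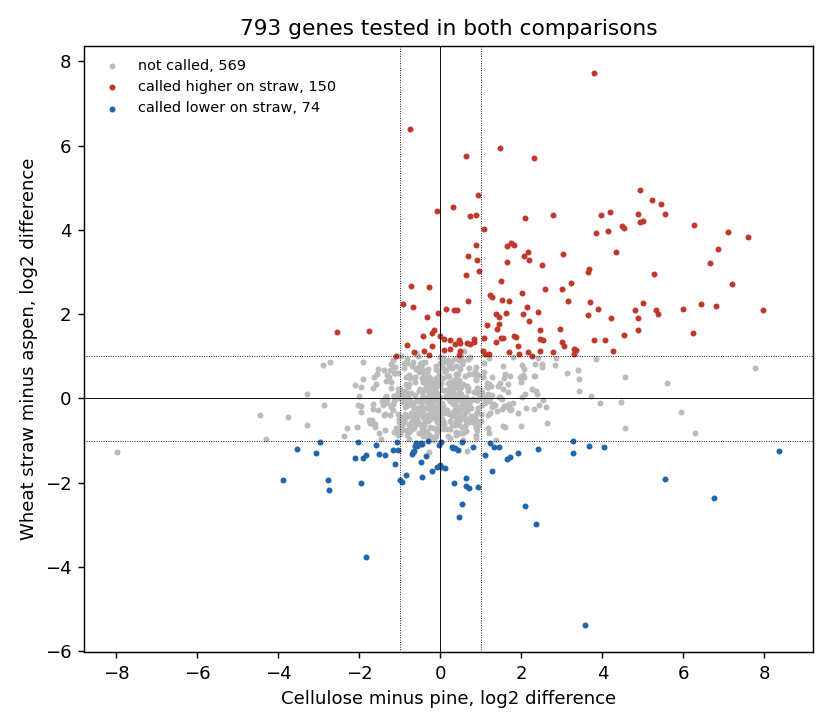
Log2 difference of cellulose minus pine (x axis) and of wheat straw minus aspen (y axis) for the 793 genes tested in both. Colours give the straw against aspen call, and dotted lines mark a difference of 1. Red points (150) lie mostly to the right of 0, while blue points (74) lie on both sides.

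The responses to cellulose and to pine, each against maltose, were also set beside the comparison, again with no shared straw or aspen library. In cellulose against maltose 28% of 805 tested genes were higher and 11.4% lower, 39.4% together. Of the 212 genes higher on cellulose and tested for straw against aspen too, 83 (39.2%) were higher on straw than aspen and 24 (11.3%) lower, against 19.1% and 9.02% of all 787 genes tested in both. That count of 83 was 53 of 144 (36.8%) after median centring and 50 of 156 (32.1%) after quantile normalisation. Over all genes tested in both, the shares higher on straw were then 15.2% and 14.9%. In pine against maltose 20.2% of 822 tested genes were higher and 17.9% lower, 38.1% together. Genes lower on pine than maltose were higher on straw than aspen in 55 of 147 cases (37.4%), while those higher on pine were higher in 26 of 149 (17.4%) and lower in 24 (16.1%). Over all 802 genes tested in both, 20.6% were higher on straw and 9.48% lower. After median centring the genes higher on pine held 19 higher on straw (14.4%) and 33 lower (25%) of 132. The shares over all 802 genes were then 16.7% and 16.8%. After quantile normalisation the counts were 19 (13.8%) and 38 (27.5%) of 138, with 14.9% and 15.9% of all 776 genes. The shares over all genes thus moved with the scaling as well.

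Among the most abundant genes, straw and aspen shared part of their top. Of the 50 highest genes of each medium, 25 were on both lists, which is 50% of each. By deposited level, 25 of the 50 highest on straw were at least 1 higher there than on aspen and 2 were lower, while of the 50 highest on aspen 10 were lower on straw and 1 was higher. Each list was chosen by a level that enters the difference, which favours its own medium, and over all listed genes 19.3% were higher on straw and 10.6% lower. The 10 highest genes held 20% of the summed normalised count of the listed genes on straw and 18.4% on aspen, so the counts were about equally concentrated. The 172 genes called higher held 30.7% of that sum on straw and 5.97% on aspen, the 83 called lower 1.18% and 4.62%, and the 96 genes not tested 49.6% and 67%. The shares of called genes describe genes chosen for their difference, and only from those below a level of 13 on aspen.

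The 5 highest genes on straw were 802227 (16.97), 501365 (15.99), 826215 (15.92), 876943 (15.89) and 808614 (15.89), in deposited level. Gene 802227 was at 17.18 and 16.75 in the straw libraries, and its deposited level was 13.39 on aspen, an 11.9-fold difference with no aspen reads recovered and hence no test. It was at 15.85 on cellulose and 8.19 on pine, the same order of media as 501365. Gene 826215 was level, at 15.92 and 15.91 in the straw libraries and a deposited 15.79 on aspen. Gene 876943 differed by 1.15, with 15.88 and 15.91 on straw.

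On aspen the 5 highest were 850433 (16.34), 873101 (15.93), 826215 (15.79), 855347 (15.59) and 780450 (15.09). Gene 850433 was at 15.29 and 15.37 on straw, and gene 873101 at 14.33 and 14.79, so their deposited differences were -1.01 and -1.37. Genes 855347 and 780450 differed by -0.05 and 0.67. None of these 5 could be tested.

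Of the 96 genes not tested, 8 were higher on straw by at least 1, 15 were lower and 73 lay within 1. Since 79 of the 96 were untested for an aspen level of 13 or more, this choice favours lower values on straw, and the counts are not comparable with the 19.3% higher and 10.6% lower over all listed genes. The highest differences were 3.58 for 802227, then 1.41 for 103613, a gene of high level on all media with 15.83 on maltose, and 1.40 for 851399. The lowest belonged to 767558, 765582 and 336226, at -2.99, -2.74 and -2.42. For these 3 genes the order of media was alike, with aspen highest at 14.88, 13.20 and 13.58, pine next at 13.48, 11.15 and 12.76, straw at 11.89, 10.45 and 11.16, and cellulose and maltose below. Their straw libraries lay within an SD of 0.22, while the spread on aspen is not known.

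The excess of genes higher on straw by deposited size, with no test, varied with level. Levels here are the mean of the deposited straw and aspen values. By deposited difference over the listed genes, 17 of 102 genes below a level of 5 were higher on straw by at least 1 and 14 lower. The counts were 35 and 24 of 250 genes from 5 to 8, 74 and 39 of 365 from 8 to 11, and 57 and 24 of 232 from 11 upwards. As deposited, higher genes outnumbered lower ones in each band, least so among the weakest genes. The median SD between libraries fell from 0.31 on straw and 0.37 on aspen below 5 to 0.10 and 0.13 between 8 and 11. Few reads stood behind some calls, since 10 genes called higher had 30 or fewer aspen reads in all and 10 called lower had 30 or fewer straw reads.

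The straw libraries differed from each other more in 1 direction among the genes called higher on straw. Library a was above library b for 110 of the 172 genes called higher (64%), with a median excess of 0.16, against 50.6% of those called lower and 53.2% of those not called, with medians of 0.03 and 0.02. For the 12 largest differences library a was above b in 9. Straw libraries lay more than 1 apart for 25 of 853 genes, 6 of them called higher and 4 called lower. Without library a 168 genes were higher and 80 lower, and without library b 180 and 78.

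At the other end, genes 877983, 825495 and 773250 had the closest levels among genes at 10 or more in both media. Gene 877983 was at 10.23 and 10.23 on straw and at 10.14, 10.33 and 10.22 on aspen, and the 95% interval of its difference ran from -0.25 to 0.25. The intervals were -0.26 to 0.25 for 825495, whose levels were 11.30 and 11.29 against 11.50, 11.14 and 11.25, and -0.22 to 0.21 for 773250. Even so 877983 was 1.22 higher on cellulose than on pine (SE 0.10, limma adjusted p = 5.3e-08), so it did vary between other media. Around the threshold itself, genes 775595, 808775 and 755554 lay just inside at 1.0004, 1.0044 and 1.0078, and genes 760317, 849576 and 760436 just outside at 0.9994, 0.9974 and 0.9963.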

How the data were processed

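The authors deposited 1 table of 949 genes with 5 columns, normalised read count on a log2 scale per the file headers, 1 value per medium. TopHat2, HTSeq and DESeq 1.5 are named, with no roles, per the submitters' processing notes. Build, annotation, strand, pseudocount and how libraries were combined: not given in the sources used here. Reads shared between similar or overlapping genes were therefore not examined.

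The low values decoded as means of log2(reads x factor + 1) over 3 libraries (straw 2), for 20 of 20 values tried per medium. Each value was then searched for whole reads matching to 4e-14 (natural log) below level 9, 8e-14 to 10 and 1.6e-13 above, with factors from 0.8 to 1.25. For media with 3 libraries, each library was sought within 3 log2 units of the mean from level 7, and within 1.5 from 10. Their values of 13 or more were not searched. On straw, with 2 libraries, the limit of 1.5 applied only from 13. Exactly 1 set was found for 2564 of 2564 values below 9 and 1669 of 1741 from 9 to 13. Of values shifted by 1e-06, 0 and 64 gave a set in these ranges, so a few read sets at the higher levels can be wrong. No pair of straw or aspen libraries looked like 1 library deposited again (chi-square over degrees of freedom 4.27 to 96.5). Searches were tested on simulated data.

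A limma model (version 3.58.1, R 4.3.3) took all 14 libraries, with a mean per medium and an intensity trend, with Benjamini-Hochberg adjustment over the genes recovered in both media. Members, lists and tests were chosen with earlier results of these data known. Named genes were the 12 largest and 12 smallest differences among called genes with non-overlapping libraries, the 3 extremes each way among untested genes, the 5 highest per medium, the 3 closest at level 10 or more, and 3 on each side of the threshold.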

Additional observations from a re-analysis of the deposited data

How the results depend on the processing

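Counts of calls were 245 to 256 of 853 genes, within 1.5 times the reported 255, with a pseudocount of 5 or 0.5, no intensity trend, only straw and aspen libraries in the fit, or centring on the median difference. Keeping genes at a mean level of at least 5 gave 229. Leaving out 1 straw or aspen library gave 248 to 261 calls, 168 to 180 higher and 78 to 88 lower. Without straw library a 230 of the 255 reported calls were kept, and without b 236; the lone straw library is then assumed to vary like the other media. Median centring gave 144 lower genes, against 83. With a threshold of 2 in place of 1, 109 genes were called, 95 higher and 14 lower, and by deposited size 113 were apart, 96 higher and 17 lower; fewer genes pass a stricter threshold by construction. Genes higher on cellulose than maltose that were also higher on straw than aspen were 53 of 144 after median centring. They were 50 of 156 after quantile normalisation, against 83 of 212 as reported. Over all genes the shares higher on straw were 15.2%, 14.9% and 19.1%, and the cause was not tested. Without 1 library, an alternative chosen after seeing the data, the 102 genes shared with cellulose over pine became 98 to 101. The 24 genes with the largest differences kept call and direction in all 305 gene and setting pairs that could be tested; the genes at the threshold did not. No paired analysis was possible because the recovered libraries carry no replicate numbers. No test was possible for genes at 13 or more on aspen, since their reads were not recovered.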
